A study of Arabidopsis thaliana with 18 samples.

Results

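The transcripts of 4 tau class glutathione transferases, *GSTU16* (AT1G59700), *GSTU18* (AT1G10360), *GSTU26* (AT1G17190) and *GSTU27* (AT3G43800), were compared in *pad2-1* and WT seedlings without stress and under 2 mild stresses. The genes were chosen by name, and earlier results of these data were known when they were chosen. They are 4 of the 28 tau class genes listed for Arabidopsis, each is read by 1 probe set that names no other gene, and these 4 probe sets stand among 22746 tested. Of the other 24 tau class genes, 7 had a named probe set of their own and 17 were not analysed here.

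Glutathione is the small thiol peptide with which plant cells buffer oxidation and tag foreign or damaging compounds. Glutathione transferases (GSTs) join it to reactive electrophilic compounds, and the conjugates are then moved into the vacuole. The tau class is found in plants, is the largest GST class of Arabidopsis, and is known for handling herbicides and for genes that respond to chemicals and oxidative stress.

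Total RNA from the aerial parts of 18-day-old plants was hybridized to Affymetrix ATH1 arrays, which read each transcript with a set of short probes. There were 6 groups of 3 arrays: *pad2-1* control and WT control, *pad2-1* P-lim and WT P-lim, and *pad2-1* MV and WT MV. All plants had the Columbia (Col-0) background and grew on MS agar with sucrose. *pad2-1* is a single mutant allele of *GSH1*, the gene of glutamate-cysteine ligase, which opens glutathione synthesis, and the mutant is known for a low glutathione content. The P-lim medium had 20% of the phosphate of the control medium. MV plants grew with methyl viologen, a herbicide that passes electrons from photosystem I to oxygen, at a concentration that the labels give as 0.05 M and the methods as 0.05 µM. Groups were taken from titles and treatment labels, because 2 of the WT groups (MV and P-lim) are described as grown on normal medium. According to the methods each hybridization used a single biological replicate. *GSH1* itself was not analysed here.

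Values are log2 expression after RMA, a normalization that the authors ran over all arrays together. A difference of 1 on this scale is a 2-fold change. Within groups, the Pearson r of array pairs across probe sets was at least 0.9964 and at most 0.9984. Of the marker lists for leaf, root and floral transition, 0 of 12, 1 of 10 and 0 of 8 genes had a named probe set. With genes added after the values were seen, 7 leaf genes lay between 10.6 and 13.3 in every array and 2 root hair genes, *EXPA7* and *EXPA18*, between 3.83 and 4.40, below the median probe set at 5.93. In whole aerial parts, fewer cells of a type and less RNA per cell cannot be told apart.

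The 4 genes did not share a pattern. *GSTU16* was higher in *pad2-1* than in WT under all 3 conditions and rose under P-lim in both genotypes. *GSTU27* was lower in *pad2-1* than in WT under MV, and MV raised it in WT. *GSTU26* rose under P-lim in *pad2-1*. *GSTU18* varied least, and its only call was a small fall under MV in WT. In *pad2-1* over WT the estimates of *GSTU18*, *GSTU26* and *GSTU27* were negative under all 3 conditions, but only *GSTU27* under MV was called. The signs of *GSTU18* under MV and of *GSTU26* under P-lim could turn with single arrays left out. All differences of the 4 genes between compared groups were below 2-fold in size. A gene was called changed at an adjusted p under 0.05 in limma, with p adjusted over all 22746 probe sets. This gave 9 calls in the 36 results of the 4 genes (7 comparisons and 2 interactions). Over these comparisons and interactions, the share of all probe sets called ran from 0.725% to 13.5%. The 36 results share arrays and are not independent.

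**Figure D1:**
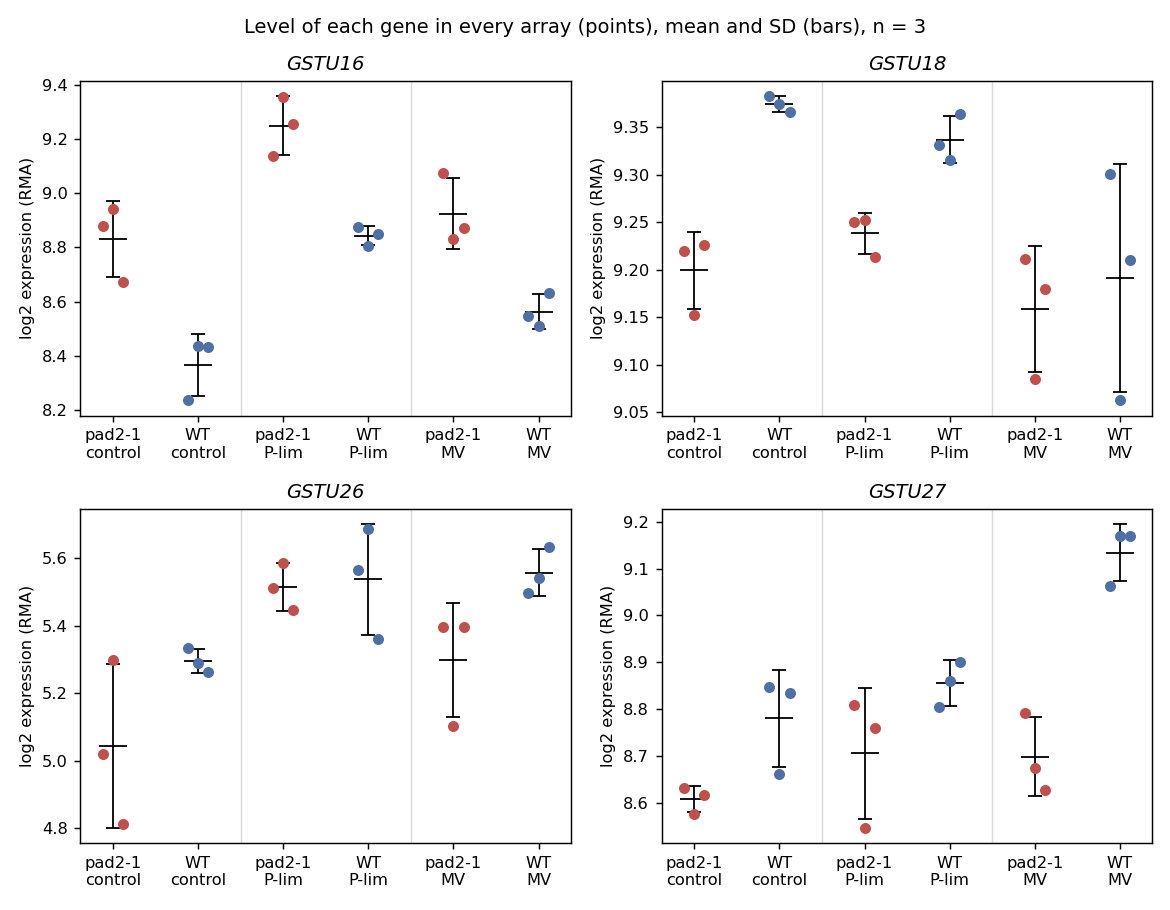
Log2 expression (y axes) of *GSTU16*, *GSTU18*, *GSTU26* and *GSTU27* in every array of the 6 groups, with *pad2-1* in red, WT in blue, and bars for the mean and SD of 3 arrays. The y axes differ between the panels and do not start at 0. All *GSTU16* points of *pad2-1* stand above those of WT in each condition, and the 3 *GSTU27* points of WT MV stand above all others.

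*GSTU16* carried the clearest difference between the genotypes. In the control condition its log2 values were 8.88, 8.94 and 8.67 in *pad2-1*, against 8.23, 8.43 and 8.43 in WT. Under P-lim they were 9.14, 9.36 and 9.26 in *pad2-1*, against 8.88, 8.80 and 8.85 in WT. Under MV they were 9.07, 8.83 and 8.87 in *pad2-1*, against 8.55, 8.51 and 8.63 in WT. In each condition every *pad2-1* array was above every WT array.

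The log2 fold change of *GSTU16* in *pad2-1* over WT was 0.46 (SE 0.082, 1.38-fold) in the control condition, with an adjusted p of 0.0012 from limma. Under P-lim it was 0.41 (1.33-fold, adjusted p = 0.00547 from limma), and under MV it was 0.36 (1.29-fold, adjusted p = 0.0124 from limma). The 3 comparisons share no arrays, although they share the spread of the fit. The call under MV was lost without *pad2-1* MV replicate 1, the highest of its group (0.29, adjusted p = 0.0592 from limma). The difference between the genotypes was not shown to depend on the condition, since the interaction of genotype was -0.10 (95% interval -0.34 to 0.14) with MV and -0.057 (-0.30 to 0.19) with P-lim.

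*GSTU16* also followed phosphate supply. P-lim raised it by 0.42 in *pad2-1* (SE 0.082, 1.34-fold, adjusted p = 0.00198 from limma) and by 0.48 in WT (1.39-fold, adjusted p = 0.000727 from limma), and in both genotypes every P-lim array was above every control array. MV gave 0.095 in *pad2-1* (adjusted p = 0.595 from limma), where the arrays overlapped, and 0.20 in WT (adjusted p = 0.137 from limma), where they did not. The comparisons of a genotype under P-lim and under MV share that genotype's control arrays.

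By mean, *GSTU16* ran from 9.25 ± 0.11 in *pad2-1* P-lim (SD, n = 3 in each group) through 8.93 ± 0.13 in *pad2-1* MV, 8.84 ± 0.036 in WT P-lim and 8.83 ± 0.14 in *pad2-1* control to 8.56 ± 0.064 in WT MV and 8.37 ± 0.11 in WT control. The arrays of *pad2-1* MV overlapped with those of WT P-lim, and those of WT P-lim with *pad2-1* control, so that the order among these 3 groups is within the spread. The top group and the bottom group differed by 0.88 (1.85-fold). The separate differences of *pad2-1* control and of WT P-lim from WT control were 0.46 and 0.48, which sum to 0.94.

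**Figure D2:**
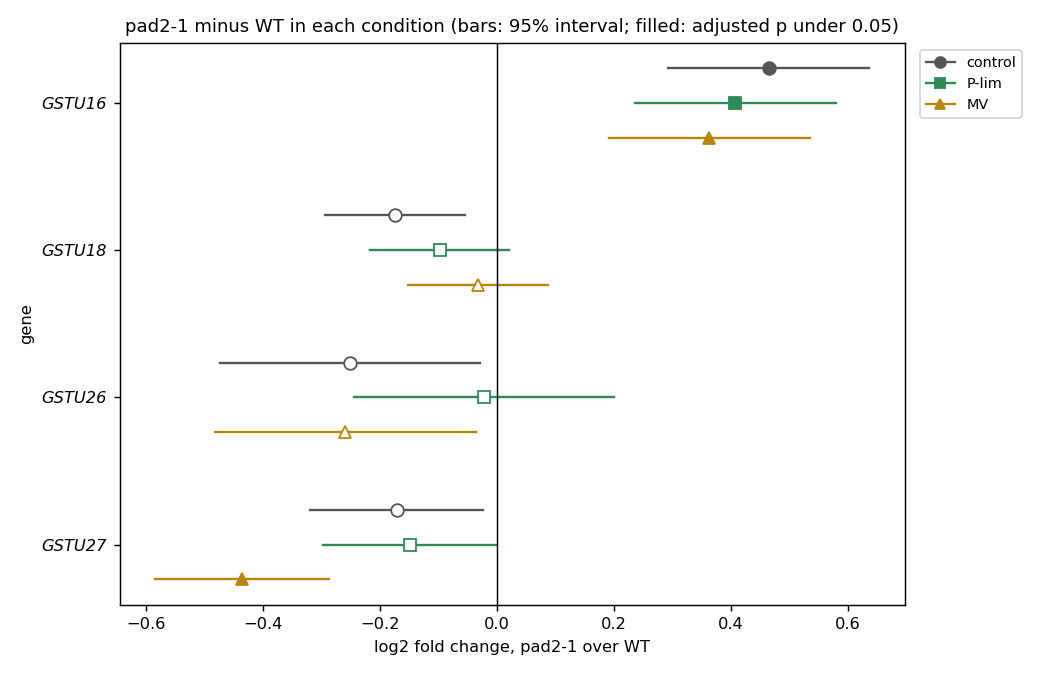
Log2 fold change of *pad2-1* over WT (x axis) for each gene (y axis) in the control (circles), P-lim (squares) and MV (triangles) conditions, with 95% intervals as bars and filled symbols for an adjusted p under 0.05. *GSTU16* lies to the right of 0 in all conditions, at 0.46, 0.41 and 0.36, and *GSTU27* under MV lies farthest to the left, at -0.44.

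Unlike *GSTU16*, *GSTU27* was lower in *pad2-1* than in WT under MV. Its log2 values under MV were 8.79, 8.67 and 8.63 in *pad2-1*, against 9.06, 9.17 and 9.17 in WT. In the control condition they were 8.63, 8.58 and 8.62 in *pad2-1*, against 8.85, 8.66 and 8.83 in WT. Under P-lim they were 8.81, 8.55 and 8.76 in *pad2-1*, against 8.80, 8.86 and 8.90 in WT. The genotypes did not overlap under MV or in the control condition, where the gap was narrow, and overlapped under P-lim.

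Under MV *GSTU27* was lower in *pad2-1* than in WT, at a log2 fold change of -0.44 (SE 0.070, 0.739-fold, adjusted p = 0.000784 from limma). Its log2 fold change in *pad2-1* over WT was -0.17 in the control condition (95% interval -0.32 to -0.024, adjusted p = 0.195 from limma) and -0.15 under P-lim (-0.30 to -0.0013, adjusted p = 0.289 from limma), neither of them called. The interaction of genotype with MV was -0.26 (-0.47 to -0.054). It passed an unadjusted p of 0.05 but not the threshold after adjustment (adjusted p = 0.256 from limma), so that the difference between the genotypes under MV was not shown to exceed that in the control condition. The interaction with P-lim was 0.022 (-0.19 to 0.23).

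MV raised *GSTU27* in WT by 0.35 (SE 0.070, 1.28-fold, adjusted p = 0.00209 from limma), with every MV array above every control array. In *pad2-1* MV over control was 0.090 (95% interval -0.059 to 0.24, adjusted p = 0.544 from limma) with overlapping arrays. P-lim gave 0.097 in *pad2-1* and 0.075 in WT, and the arrays overlapped in both. By mean, WT MV stood first at 9.13 ± 0.061 (SD, n = 3), apart from WT P-lim at 8.86 ± 0.049. From there WT control (8.78 ± 0.10), *pad2-1* P-lim (8.71 ± 0.14), *pad2-1* MV (8.70 ± 0.084) and *pad2-1* control (8.61 ± 0.028) each overlapped with the group next in order.

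*GSTU26* was the dimmest of the 4 probe sets, with a mean of 5.37 over the arrays against a median of 5.93 over all probe sets, a range in which RMA compresses differences. It was read at 5.02, 5.30 and 4.81 in *pad2-1* control and at 5.33, 5.29 and 5.26 in WT control. Under P-lim its values were 5.51, 5.59 and 5.45 in *pad2-1*, against 5.57, 5.69 and 5.36 in WT. Under MV they were 5.40, 5.10 and 5.40 in *pad2-1*, against 5.50, 5.54 and 5.63 in WT. All stressed WT arrays were above the WT control arrays, and the 3 *pad2-1* control arrays spread more widely than any other group of this gene.

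P-lim raised *GSTU26* in *pad2-1* by 0.47 (SE 0.11, 1.39-fold, adjusted p = 0.00585 from limma), with no overlap of the arrays. In WT P-lim over control was 0.24 (95% interval 0.019 to 0.47, adjusted p = 0.189 from limma), and the interaction of genotype with P-lim was 0.23 (-0.086 to 0.54, adjusted p = 0.678 from limma), so that a difference between the genotypes in this response was not shown. MV over control was 0.25 in *pad2-1* (adjusted p = 0.176 from limma) and 0.26 in WT (adjusted p = 0.122 from limma), both under an unadjusted p of 0.05 and neither called. With the arrays of the compared groups alone in the fit, the WT response to MV was called (adjusted p = 0.0208 from limma).

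Between the genotypes, *GSTU26* in *pad2-1* over WT was -0.25 in the control condition (adjusted p = 0.211 from limma), -0.022 under P-lim (adjusted p = 0.956 from limma) and -0.26 under MV (adjusted p = 0.187 from limma), and the arrays were fully apart under MV alone. The control comparison and the response of *pad2-1* to MV turned on *pad2-1* control replicate 2, the highest of its group. Without it they came to -0.38 (adjusted p = 0.0381 from limma) and 0.38 (adjusted p = 0.0281 from limma). WT MV, WT P-lim and *pad2-1* P-lim, at 5.56 ± 0.070, 5.54 ± 0.16 and 5.51 ± 0.070 (SD, n = 3 each), overlapped at the top of the order. *pad2-1* MV (5.30 ± 0.17), WT control (5.30 ± 0.036) and *pad2-1* control (5.04 ± 0.24) each overlapped with the next.

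*GSTU18* was the steadiest of the 4, with 0.32 between its lowest and highest array against 0.62 for *GSTU27*, 0.87 for *GSTU26* and 1.12 for *GSTU16*. Its values were 9.22, 9.15 and 9.23 in *pad2-1* control, against 9.38, 9.37 and 9.37 in WT control. Under P-lim they were 9.25, 9.25 and 9.21 in *pad2-1*, against 9.33, 9.32 and 9.36 in WT, and under MV they were 9.21, 9.08 and 9.18 in *pad2-1*, against 9.30, 9.06 and 9.21 in WT. The *pad2-1* arrays were below the WT arrays in the control condition and under P-lim, and the genotypes overlapped under MV.

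The log2 fold change of *GSTU18* in *pad2-1* over WT was -0.17 in the control condition (SE 0.057, 0.886-fold) and was not called (adjusted p = 0.0817 from limma), while it was called with the dimmer 50% of probe sets left out (adjusted p = 0.0363 from limma) and with trend and robust estimation of the variance (adjusted p = 0.0377 from limma). Under P-lim it was -0.099 (95% interval -0.22 to 0.021) and under MV -0.032 (-0.15 to 0.087). MV lowered *GSTU18* in WT by 0.18, a log2 fold change of -0.18 (0.881-fold, adjusted p = 0.0393 from limma). This call was lost with the arrays of the compared groups alone (adjusted p = 0.135 from limma) and without any 1 of 5 of their 6 arrays, the exception being WT MV replicate 1. MV gave -0.041 in *pad2-1*, and P-lim gave 0.039 in *pad2-1* and -0.037 in WT, none of them called. The interactions of genotype were 0.14 with MV and 0.076 with P-lim, and neither was called.

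By mean, *GSTU18* was highest in WT control at 9.37 ± 0.0085 (SD, n = 3) and next in WT P-lim at 9.34 ± 0.025, and neither overlapped with the group after it. *pad2-1* P-lim (9.24 ± 0.022), *pad2-1* control (9.20 ± 0.041), WT MV (9.19 ± 0.12) and *pad2-1* MV (9.16 ± 0.066) followed with overlapping arrays. The stressed WT group with the lowest mean thus lay among the *pad2-1* groups.

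**Figure D3:**
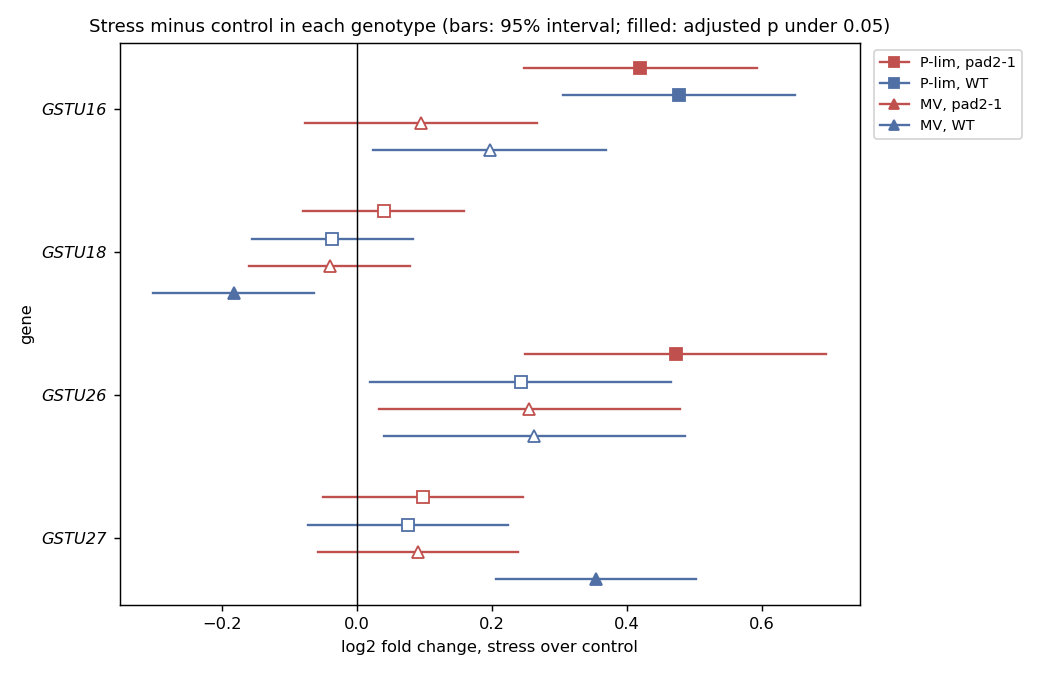
Log2 fold change of P-lim (squares) and MV (triangles) over control (x axis) in *pad2-1* (red) and WT (blue) for each gene (y axis), with 95% intervals as bars and filled symbols for an adjusted p under 0.05. *GSTU16* responded to P-lim in both genotypes, at 0.42 and 0.48, whereas *GSTU27* was called under MV in WT alone, at 0.35.

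Each comparison can be set beside the whole array. For *pad2-1* over WT in the control condition, 1 of the 4 was called, against 6.35% of all probe sets, and the median of the 4 log2 fold changes was -0.17 against -0.0046 over all probe sets. Under P-lim it was 1 of 4 against 5.31% (median -0.060 against 0.0024), and under MV 2 of 4, 1 higher and 1 lower, against 5.16% (median -0.15 against -0.015). At an unadjusted p under 0.05 from limma, 1 of the 4 was higher and 3 were lower in the control condition. Under P-lim 1 was higher and 1 lower, and under MV 1 was higher and 2 were lower. Of all probe sets, 17.4%, 17.0% and 18.6% passed in the control, P-lim and MV conditions in either direction. Arrays of the genotypes were fully apart for 3 of 4 genes in the control condition, 2 of 4 under P-lim and 3 of 4 under MV, against 25.1%, 23.2% and 20.1% of all probe sets.

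For the stress comparisons, P-lim over control called 2 of 4 genes in *pad2-1* against 11.8% of all probe sets, and 1 of 4 in WT against 9.21%. Their medians were 0.26 in *pad2-1* and 0.16 in WT, against 0.017 and 0.012 over all probe sets. At an unadjusted p under 0.05 from limma, 2 of 4 were higher under P-lim in each genotype. Of all probe sets, 24.1% in *pad2-1* and 21.4% in WT passed in either direction. MV over control called 0 of 4 in *pad2-1* in limma, where 1 of 4 passed an unadjusted p of 0.05, against 8.01% of all probe sets called and 20.3% at an unadjusted p under 0.05. In WT it called 2 of 4, 1 higher and 1 lower, against 13.5%, with a median of 0.23 against 0.020. At an unadjusted p under 0.05 from limma, 3 of 4 were higher and 1 was lower there, against 24.8% of all probe sets in either direction. Arrays of stress and control were fully apart under P-lim for 2 of 4 genes in *pad2-1* and 3 of 4 in WT, against 27.2% and 31.8% of all probe sets, and under MV for 0 of 4 in *pad2-1* and 4 of 4 in WT, against 23.6% and 30.1%. Of the interactions in limma, 0 of 4 were called with MV (against 1.65% of all probe sets) and 0 of 4 with P-lim (against 0.725%). At an unadjusted p under 0.05 they were 1 of 4 with MV (against 12.3%) and 0 of 4 with P-lim (against 10.1%).

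Across the 18 arrays the 4 genes had little in common. The highest Pearson r was 0.51, between *GSTU26* and *GSTU27*, and the lowest was -0.43, between *GSTU16* and *GSTU27*. Once group means were taken off, *GSTU26* and *GSTU27* had an r of -0.13 and *GSTU16* and *GSTU26* one of 0.50. These are descriptions over arrays that share 6 groups and 1 normalization.

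In the TAIR10.1 gene order, *GSTU16*, *GSTU18* and *GSTU26* are on chromosome 1 and *GSTU27* is on chromosome 3. *GSTU18* lies next to *ERD9* (AT1G10370), another tau class gene, also called *GSTU17*, that had no named probe set. *GSTU26* lies next to *GSTU25* (AT1G17180) and 2 genes away from *GSTU24*. No other GST gene is within 2 places of *GSTU16* or *GSTU27*. Places farther away were not examined, and by locus number *GSTU15* (AT1G59670) is close to *GSTU16*. The neighbour *GSTU25* was read at 4.76, 4.62 and 4.07 in *pad2-1* control, against 3.34, 3.41 and 3.27 in WT control. Its log2 fold changes in *pad2-1* over WT were 1.14 in the control condition, 1.31 under P-lim and 0.92 under MV. They had a wide SE of 0.41, so that none was called (adjusted p = 0.121, 0.0739 and 0.230 from limma). Before adjustment the p values from limma were 0.0119, 0.00484 and 0.0365. Arrays of the genotypes were fully apart in the control condition and under P-lim, and overlapped under MV. The WT control values lay below the lower quartile of the arrays (3.80 to 3.91), a range in which RMA compresses differences.

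The probe table that names the genes leaves many probe sets without a symbol, so the counts that follow cover only the genes it names, and the other genes of each list were not analysed here. The other 7 tau class genes with a named probe set were *GSTU15*, *GSTU20*, *GSTU21*, *GSTU22*, *GSTU23*, *GSTU25* and *GSTU28*. Of these, limma called 0 in *pad2-1* over WT in any condition. At an unadjusted p under 0.05 from limma, 3 were higher and 1 was lower in the control condition. Under P-lim 2 were higher and 0 lower, and under MV 3 were higher and 0 lower. In the control, P-lim and MV conditions, 17.4%, 17.0% and 18.6% of all probe sets passed in either direction. The median log2 fold changes of the 7 genes were 0.18, 0.13 and 0.19, against the -0.17, -0.060 and -0.15 of the 4 genes. Several of these 7 were dim, where RMA compresses differences and a missing call says little. *GSTU15* had group means of 3.13 to 3.29 and *GSTU25* in WT of 3.34 to 3.57, below the lower quartile of the arrays (3.80 to 3.91). Those of *GSTU21* (3.63 to 3.94) and *GSTU22* (3.67 to 4.09) lay around it. Under stress, *GSTU20*, which is placed in glucosinolate synthesis, was higher in *pad2-1* MV than in *pad2-1* control (0.47, adjusted p = 0.00249 from limma) and higher in *pad2-1* P-lim than in *pad2-1* control (0.38, adjusted p = 0.00991 from limma). The second call was lost without *pad2-1* control replicate 1. *GSTU23* was lower with MV than in the control condition, at -0.42 in *pad2-1* (adjusted p = 0.0283 from limma) and at -0.85 in WT plants (adjusted p = 4.13e-05 from limma). The call in *pad2-1* was lost without any 1 of 5 of the arrays compared (adjusted p 0.0518 to 0.147).

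Of 26 GST genes of other classes, 4 had a named probe set, namely *GSTF4* and *GSTF13* of the phi class, *GSTL3* of the lambda class and the microsomal *MGST*. Under MV *GSTF4* was called lower in *pad2-1* than in WT, at -0.32 (adjusted p = 0.0141 from limma), and it was also lower in *pad2-1* P-lim than in *pad2-1* control (-0.29, adjusted p = 0.0152 from limma). The call under MV was lost with the arrays of the compared groups alone (adjusted p = 0.0691 from limma) and without any 1 of 4 of the 6 arrays (adjusted p 0.0530 to 0.0878). The call under P-lim was lost without *pad2-1* control replicate 2 or *pad2-1* P-lim replicate 1 (adjusted p = 0.0765 and 0.0713 from limma). The other 3 were not called in any comparison. At an unadjusted p under 0.05, 1 of the 4 was higher in *pad2-1* control than in WT control, and under P-lim 1 was higher and 1 lower in *pad2-1* than in WT, against 17.4% and 17.0% of all probe sets in either direction. Of the GSTs with a named probe set here, *GSTU16* was the only one called higher in *pad2-1* than in WT in any condition, which says nothing of the GSTs not analysed here.

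**Figure D4:**
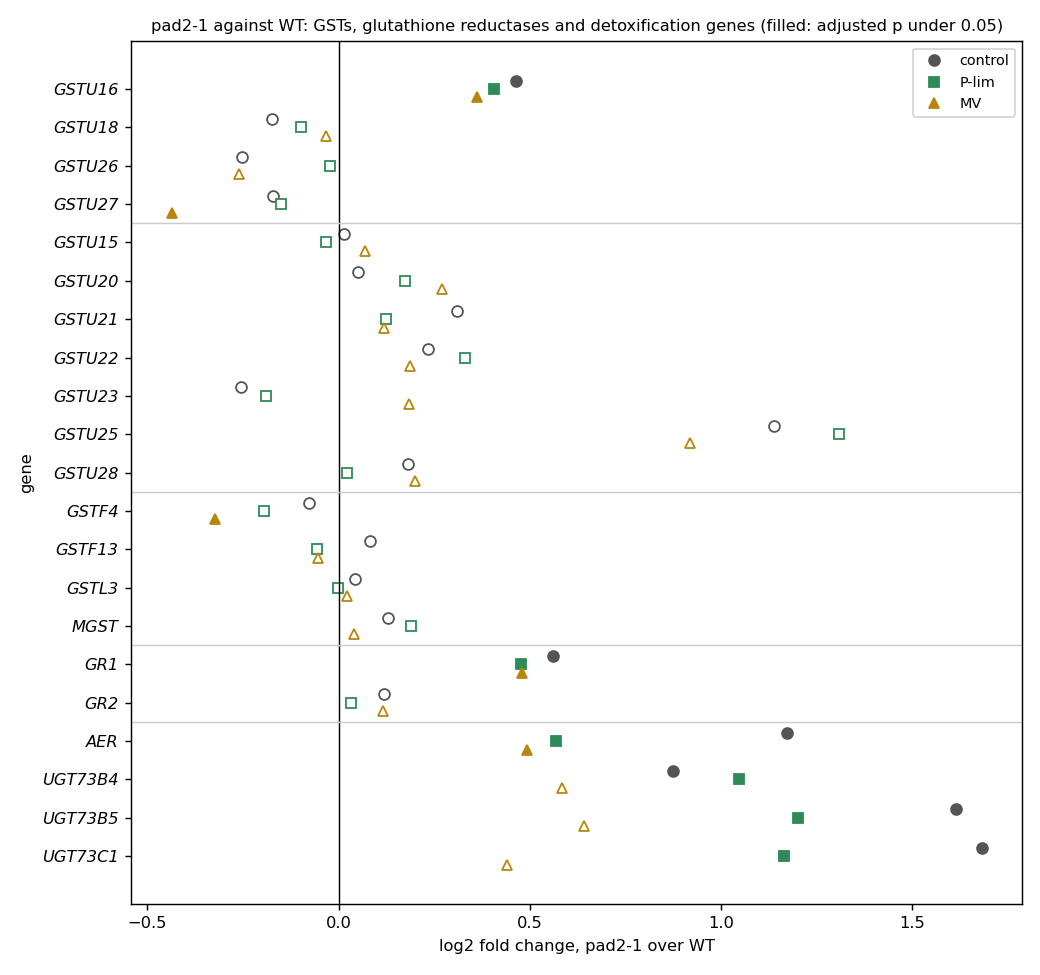
Log2 fold change of *pad2-1* over WT (x axis) in the control, P-lim and MV conditions for the GSTs with a named probe set, the 2 glutathione reductases and 4 detoxification genes (y axis), with filled symbols for an adjusted p under 0.05. Among the GSTs, filled symbols stand for *GSTU16* in all conditions and for *GSTU27* and *GSTF4* under MV.

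Of 22 genes of glutathione synthesis, reduction and breakdown, 2 had a named probe set, the glutathione reductases *GR1* and *GR2*, which return oxidized glutathione to its thiol form. *GR1* was read at 8.67, 8.82 and 8.63 in *pad2-1* control, against 8.18, 8.05 and 8.21 in WT control, with no overlap. It was higher in *pad2-1* than in WT by 0.56, 0.48 and 0.48 in the control, P-lim and MV conditions (adjusted p = 1.61e-05, 0.000217 and 0.000136 from limma). P-lim raised it by 0.33 in *pad2-1* (adjusted p = 0.00238 from limma) and by 0.41 in WT (adjusted p = 0.00034 from limma). *GR2* was not called in any comparison. The 5 genes listed for the transport of glutathione conjugates had no named probe set and were not analysed here.

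*GSTU16* and *GR1* followed each other across the 18 arrays, with a Pearson r of 0.94, which was 0.98 over the 6 group means and 0.33 once group means were taken off. The genes whose pattern was most like that of *GSTU16*, out of 6045 brighter named probe sets, were AT1G14130 (r = 0.97), AT1G33110 (0.95) and AT4G33540 (0.95). For *GSTU18* they were AT5G16660 (0.90), AT3G09580 (0.89) and AT3G23080 (0.88), and for *GSTU27* AT1G52000 (0.87), AT2G23200 (0.87) and AT5G52540 (0.86). *GSTU26* was most like AT1G14710 (0.88), *IQD24* (0.87) and *PMEPCRF* (0.86) among 6046. These r values are over 18 arrays that share their groups, and the 3 genes of each were picked for being highest.

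**Figure D5:**
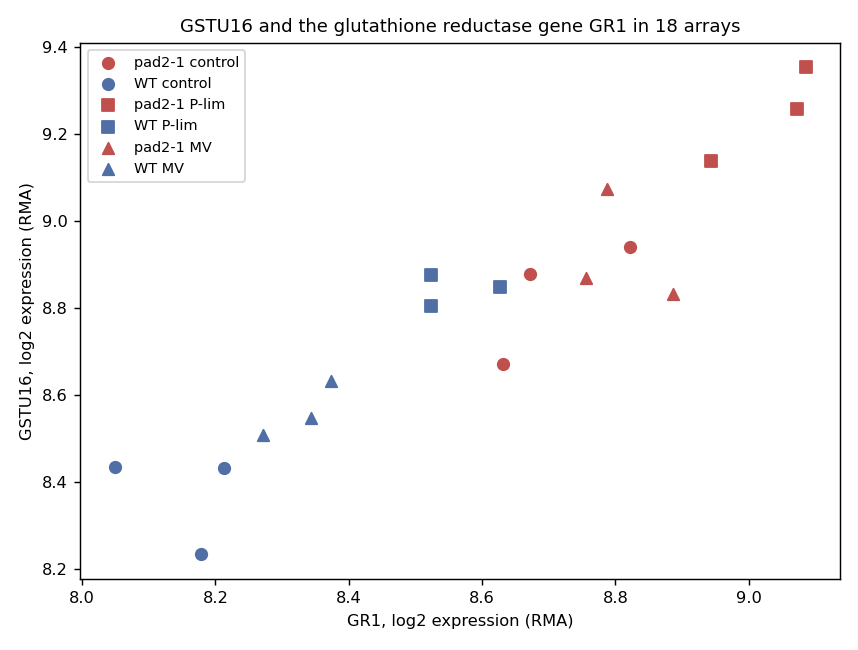
Log2 expression of *GSTU16* (y axis) against *GR1* (x axis) in 18 arrays, with colours for genotype (*pad2-1* red, WT blue) and shapes for condition. The WT control arrays lie at the lower left and the *pad2-1* P-lim arrays at the upper right, with r = 0.94 over all arrays.

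Of 23 genes listed as chemical detoxification partners, 4 had a named probe set. *AER* encodes a reductase of reactive carbonyls, and *UGT73B4*, *UGT73B5* and *UGT73C1* encode glycosyltransferases that act on small molecules. All 4 were called higher in *pad2-1* than in WT in the control condition and under P-lim, against 6.35% and 5.31% of all probe sets in either direction. Their log2 fold changes there were 0.88 to 1.68 and 0.57 to 1.20. In WT control *UGT73B4* (3.34) and *UGT73C1* (3.48) had means below the lower quartile of the arrays (3.80 to 3.91), where RMA compresses differences. Under MV 1 of 4, *AER*, was called (0.49, adjusted p = 0.00123 from limma), against 5.16% of all probe sets. All 4 passed an unadjusted p of 0.05 under MV, against 18.6% of all probe sets. Over the 18 arrays *GSTU16* had an r of 0.90 with *AER*, 0.85 with *UGT73B5*, 0.84 with *UGT73B4* and 0.74 with *UGT73C1*. Once group means were taken off, these were 0.50, 0.51, 0.55 and 0.50. *AER* and *UGT73C1* had called interactions of genotype with MV of -0.68 and -1.24, against 1.65% of all probe sets called. Those of *UGT73B5* (-0.97, adjusted p = 0.0821 from limma) and *UGT73B4* (-0.29, adjusted p = 0.689 from limma) were not called. The interaction of *GSTU16* with MV was -0.10 and not called, and a difference between the genes in this interaction was not tested.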

How the data were processed

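The authors deposited a log2 expression value for each probe set in each array. They had run RMA, which corrects background, applies quantile normalization and summarizes the probes of a set, on the 18 arrays jointly. RMA gives all arrays nearly the same distribution, so a shift shared by most transcripts cannot be seen, and dim signals are compressed. Array medians lay between 5.89 and 5.97, and no further scaling was applied. An array gives no read depth, and its precision is limited by 3 arrays per group.

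Of 22810 probe sets, 64 manufacturer controls were not tested. Genes were named from a probe table in which 13513 probe sets have 1 gene, 503 several and 8794 none, and 13436 matched RefSeq by gene ID. limma (version 3.58.1, R 4.3.3) fitted 1 model of 6 group means to 18 arrays (12 residual degrees of freedom), with Benjamini-Hochberg adjustment over 22746 probe sets, and intervals are 95% intervals of that fit. An interaction compares a stress response in *pad2-1* with that in WT. The rule for named genes covered the 4 genes, the GSTs, glutathione and detoxification genes with a named probe set, and for likeness the 3 named genes with the highest Pearson r over 18 arrays among probe sets above the median that are not the gene itself. Alternatives were the arrays of the compared groups alone, a filter on the dimmer 50% of probe sets, a shift of arrays to equal medians (by at most 0.048), trend and robust estimation in eBayes, replicate number as a block, a minimum log2 fold change of 1, and each array left out in turn. The limma fit was tested on simulated data for *pad2-1* over WT in the control condition and for the interaction with MV. The pass rule concerned log2 changes of 1, larger than those of the 4 genes. The other comparisons and steps were not tested in this way. The genes, gene lists and alternatives were chosen with earlier results of these data known. Protein and promoter sequences were not used here. The coordinates of the genes are not given, since the arrays name no genome build.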

Additional observations from a re-analysis of the deposited data

Results flagged for a closer look

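In 3 results outside the 4 genes, the effect of genotype differed between a stress and the control condition by an interaction in limma. For *AER*, *pad2-1* over WT was 0.49 under MV and 1.17 in the control condition, an interaction of -0.68 (SE 0.12, adjusted p = 0.00465 from limma). For *AER* under P-lim, *pad2-1* over WT was 0.57, an interaction of -0.60 (adjusted p = 0.0199 from limma), and this call was lost without any 1 of 7 arrays (adjusted p 0.0522 to 0.0657). *UGT73C1* was read at 4.01, 3.96 and 4.30 in *pad2-1* MV, against 5.41, 5.54 and 4.53 in *pad2-1* control. Its interaction of genotype with MV was -1.24 (SE 0.26, adjusted p = 0.0177 from limma), lost without WT control replicate 1, *pad2-1* control replicate 2 or *pad2-1* MV replicate 2 (adjusted p 0.0537 to 0.0554).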

How the results depend on the processing

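Of 9 calls among the 36 results of the 4 genes, 7 were kept in each alternative that gave them a value at the adjusted p alone. *GSTU26*, called in *pad2-1* P-lim over *pad2-1* control, lies below the median signal and has no value with the dimmer probe sets left out. The exceptions were *GSTU18* under MV in WT and *GSTU16* in *pad2-1* MV against WT MV. The numbers of probe sets called were 1444, 1207 and 1174 for *pad2-1* over WT in the control, P-lim and MV conditions, 2687 and 2094 for P-lim over control in *pad2-1* and WT, 1821 and 3080 for MV over control in *pad2-1* and WT, and 165 and 376 for the interactions with P-lim and MV. With a minimum log2 fold change of 1 they were 140, 79, 86, 205, 164, 116, 168, 57 and 89 in this order, and none of the 9 calls of the 4 genes passed, since the alternative asks for larger changes. With the arrays of the compared groups alone, 678 were called for *pad2-1* MV over WT MV, 1714 for *pad2-1* P-lim and 1031 for *pad2-1* MV over *pad2-1* control, in a fit of fewer samples. The number could also rise in such a fit, as for WT P-lim over WT control, with 2513 called against 2094. Leaving out single arrays gave 945 to 1281, 690 to 1142, 732 to 1191, 1930 to 2400, 1434 to 1912, 1173 to 1690, 2158 to 2685, 90 to 237 and 240 to 444 in the same order. With the compared arrays alone, *GSTU18* in WT MV over WT control stayed at -0.18 and lost its call (adjusted p = 0.135 from limma), and *GSTU26* in that comparison stayed at 0.26 and gained one (adjusted p = 0.0208 from limma). *GSTU18* in *pad2-1* over WT control stayed at -0.17 and was called with the dimmer probe sets left out (adjusted p = 0.0363 from limma) or with trend and robust estimation (adjusted p = 0.0377 from limma). With single arrays left out, *GSTU18* in WT MV over WT control ran from -0.24 to -0.12, *GSTU16* in *pad2-1* MV over WT MV from 0.29 to 0.41, *GSTU26* in *pad2-1* control over WT control from -0.38 to -0.14, and *GSTU26* in *pad2-1* MV over *pad2-1* control from 0.14 to 0.38. Signs turned only in values that were not called. These were the interaction of *GSTU26* with MV (0.015 with each array shifted to the same median, -0.12 to 0.12 with single arrays left out), that of *GSTU27* with P-lim (-0.0076, and -0.030 to 0.10), that of *GSTU16* with P-lim (-0.14 to 0.0092), *GSTU18* in *pad2-1* MV over WT MV (-0.097 to 0.022) and *GSTU26* in *pad2-1* P-lim over WT P-lim (-0.11 to 0.052). The causes of these changes were not tested. No pairing by replicate number was seen, as the deviations of same-numbered arrays correlated between -0.18 and 0.18, with 2 of 45 pairs over 0.1. These correlations cannot show whether same-numbered samples were grown or processed together. With the replicate number as a block, *GSTU16* in *pad2-1* over WT control was 0.46 (adjusted p = 0.00315 from limma), 1369 probe sets were called there, and no call of the 4 genes changed. Protein identities and promoter motifs were not run.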

Other observations

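Among the 3 arrays of *pad2-1* control, replicate 3 was the lowest for several of the genes described. *GSTU16* was 8.88, 8.94 and 8.67 there, *GSTU26* was 5.02, 5.30 and 4.81, and *GR1* was 8.67, 8.82 and 8.63. The gap was wider for the glycosyltransferase genes, with *UGT73B4* at 4.49, 4.36 and 3.79, *UGT73B5* at 6.15, 5.50 and 5.00 and *UGT73C1* at 5.41, 5.54 and 4.53. *GSTU18* and *GSTU27* did not have their lowest value in that array. Without it, *GSTU16* in *pad2-1* over WT control was 0.54 (adjusted p = 0.000376 from limma).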
